A study of Mus musculus with 4 samples.

Results

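ILC1-like cells of the mouse liver were chosen by the UMIs of 16 genes in single-cell RNA counts, and 393 of the 20039 kept barcodes of 4 libraries met the rule. A member had no UMI of the T cell receptor complex genes Cd3d, Cd3e and Cd3g, at least 1 UMI of Ncr1 or Klrb1c, which encode receptors shared by NK cells and ILC1, no UMI of the B cell gene Cd79a and at most 1 of the myeloid gene Lyz2. A UMI, or unique molecular identifier, stands for 1 captured transcript. A member also had to hold more UMIs of Gzmc, Cxcr6, Cd160 and Klra5 together than of Klra8, Klra4, Klra7, Cma1 and Klrg1 together. Cells that passed the first steps but had the second sum larger are called NK-like here, and those with equal sums undecided.

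The libraries come from livers of mice of the IL-22sgBFP genotype, in which a blue fluorescent protein reports on the cytokine gene Il22. CD45-positive leukocytes were sorted into a reporter-negative and a reporter-positive fraction, either 12 h after 300000 MC38 cells, a mouse colon carcinoma line, were injected into the spleen in 250 µl of PBS, or before injection (0 h). All groups carry the reporter, each group is 1 library, and the number of mice behind a library is not given. No library follows an injection of PBS alone, so effects of surgery and of tumour cells cannot be told apart, and every ratio of 12 h over 0 h compares 2 libraries, not 2 conditions.

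ILC1, which with conventional NK cells form the group 1 innate lymphoid cells, are lymphocytes without rearranged antigen receptors that stay in tissues, and in the liver they share many receptors with circulating NK cells. They are known for the transcription factor T-bet, for making interferon gamma and TNF, and for the death ligand TRAIL. Conventional NK cells depend on Eomes, recirculate with the blood and carry more perforin and granzyme A.

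The reporter-negative fraction held 264 members among 10099 kept cells at 12 h and 124 among 8301 at 0 h. The reporter-positive fraction held 2 members among 1350 cells at 12 h and 3 among 289 at 0 h, too few to compare. The filter of at least 200 genes and under 10% mitochondrial UMIs removed 132 of 10231 barcodes at 12 h and 254 of 8555 at 0 h in the reporter-negative libraries. Members had a median of 2058 UMIs and 973.5 genes at 12 h, against 1816.5 UMIs and 930 genes at 0 h, and their summed UMIs came to 571596 and 238814. Levels are given as CPM, UMIs scaled to a fixed total of the sum, in which 1 UMI is worth 1.75 CPM at 12 h and 4.19 CPM at 0 h. The reporter-negative libraries shared 110 barcode sequences, of which 8 belonged to a member in either library and 0 to a member in both. Scrublet, a doublet caller, marked 6 members at 12 h and 2 at 0 h, and these were kept.

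The gate genes chose the cells, so their values describe the choice and support nothing. Cd160, a receptor for the ligand HVEM, admitted most members, with 515 UMIs in 221 cells (83.7%) at 12 h and 232 UMIs in 99 cells (79.8%) at 0 h. Gzmc, a granzyme gene at chr14:56231441-56234656 on the minus strand (GRCm38), had 302 UMIs in 49 cells at 12 h and 134 in 19 cells at 0 h. The 3 richest cells held 40.4% and 76.9% of these. Cxcr6, the chemokine receptor that keeps lymphocytes in liver sinusoids, had 67 UMIs in 60 cells at 12 h and 34 in 29 cells at 0 h, and the Ly49 receptor gene Klra5 had 19 and 13 UMIs. Cd160 was the only one of the 4 genes with a UMI in 157 members (59.5%) at 12 h and 71 (57.3%) at 0 h.

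Many members lay close to the threshold. The difference of the 2 sums was exactly 1 UMI in 95 members at 12 h and 50 at 0 h, and at least 2 in 169 and 74. Just outside, 177 cells at 12 h and 149 at 0 h had equal sums, 171 and 139 of them with both sums at 0, and 67 and 35 cells had 1 UMI more on the NK side. The undecided cells were shallow at 0 h, with a median of 1490 UMIs at 12 h and 769 at 0 h.

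Genes outside the gate followed the split into ILC1-like and NK-like cells at both times. Of 16 measured ILC1 markers that the gate did not use, 15 were at least 1.5-fold higher in ILC1-like cells at both times and 0 were lower. Of 16 measured markers of conventional NK cells 0 were higher and 13 lower at both times. Over the 2898 genes measured at both times, 5.31% were higher and 4.55% lower at both. A gene counted as measured with at least 30 UMIs over the 2 sums compared. At 12 h alone 13.6% of 4826 genes were higher and 10.7% lower, and at 0 h alone 15.3% of 2907 were higher and 11.5% lower. The cells were split by genes that vary with these markers, so the counts describe how far the label holds and test nothing.

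Among the genes with the highest ratios outside the gate was Cd7, a receptor of the immunoglobulin family, which had 4921 CPM in ILC1-like and 698 CPM in NK-like cells at 12 h, and 4049 and 576 CPM at 0 h. The ratio was 7.05 (95% interval 6.47 to 7.68) and 7.02 (6.07 to 8.16). Ltb, the gene of lymphotoxin beta, stood at 1151 CPM in ILC1-like and 92.7 CPM in NK-like cells at 12 h, and at 1076 and 165 CPM at 0 h. Il7r, the interleukin 7 receptor that marks innate lymphoid cells, was 11.2-fold (7.07 to 18.7) and 6.02-fold (3.29 to 11.8) higher. The intervals throughout cover counting error only and take UMIs as independent, although 1 cell gives many of them.

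Tmem176b, a membrane protein gene, was 22.4-fold higher (13.9 to 38.5) at 12 h and 56.2-fold (18.7 to 277) at 0 h, where NK-like cells held 3 UMIs. Ckb, the brain-type creatine kinase, was 26.2-fold and 17.6-fold higher. Itga1, the alpha-1 integrin CD49a by which liver ILC1 are sorted, was 13.1-fold higher (6.25 to 31.6) at 12 h and 7.17-fold (3.10 to 19.3) at 0 h. Tnfsf10, which encodes TRAIL, was 28.2-fold (10.5 to 107) and 5.99-fold (2.92 to 13.5) higher, and Zfp683, the residency factor Hobit, 12.7-fold (3.85 to 66.2) and 4.21-fold (1.41 to 15.1), which rests on 23 and 3 UMIs at 12 h and 13 and 5 at 0 h, fewer than the 30 that a measured gene needs. The predicted gene Gm36723 had 199 UMIs in ILC1-like and 30 in NK-like cells at 12 h, and 109 and 16 at 0 h. S100a4, a calcium-binding protein gene, was 5.51-fold and 4.34-fold higher, Rgs1, a regulator of chemokine receptor signalling, 4.14-fold and 3.11-fold, and the heat shock gene Hspa1b, whose reads can be split with Hspa1a, 2.84-fold and 8.61-fold. Tnfsf10 and Itga1 were higher in ILC1-like cells in both libraries.

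Genes of circulating NK cells were lower in ILC1-like cells. Eomes, the T-box factor of conventional NK cells at chr9:118478212-118486132, had 5 UMIs in ILC1-like and 152 in NK-like cells at 12 h, and 1 and 73 at 0 h, which gives ratios of 0.0546 (0.0175 to 0.130) and 0.0222 (0.000554 to 0.128). Itgam, the integrin CD11b of mature NK cells, had ratios of 0.0453 and 0.0216, resting on 3 and 1 UMIs of ILC1-like cells. Gzma, granzyme A, stood at 3322 CPM in ILC1-like and 19424 CPM in NK-like cells at 12 h, and at 3522 and 18794 CPM at 0 h. Prf1, perforin, had ratios of 0.155 (0.107 to 0.217) and 0.200 (0.124 to 0.310). Other low ratios belonged to Zeb2, a factor of terminal NK maturation (0.103 and 0.106), to the adaptor gene Sh2d1a (0.187 and 0.142), to the Ly49 receptor gene Klra3 (0.197 and 0.0528), whose reads can be split among Ly49 paralogs, to AB124611 (0.228 and 0.206) and to Scimp (0.233 and 0.0810).

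Tbx21, Ifng and Gzmb differed less between the classes than the genes above. Tbx21, the gene of T-bet, had ratios of 0.964 (0.621 to 1.48) at 12 h and 0.682 (0.355 to 1.25) at 0 h, and Ifng of 0.963 (0.806 to 1.15) and 0.668 (0.485 to 0.911). Gzmb, granzyme B, was at 0.734 and 0.705 of the NK-like level. Tnf was 4.57-fold higher (1.96 to 11.9) at 12 h and 3.78-fold (0.863 to 22.7) at 0 h, on 22 and 7 UMIs of ILC1-like cells. Itga2, the integrin CD49b of NK cells, had ratios of 0.287 and 0.175. Cd69, listed as an ILC1 marker, was the only 1 of the 16 that did not pass 1.5-fold at both times. The measured conventional NK markers that were not lower by that fold at both times were Gzmb, Klrc2 and Emb. Klrc2 had ratios of 0.647 at 12 h and 0.754 at 0 h. Emb ran the other way, with 1.26 (0.925 to 1.70) at 12 h and 2.59 (1.53 to 4.46) at 0 h.

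**Figure D1:**
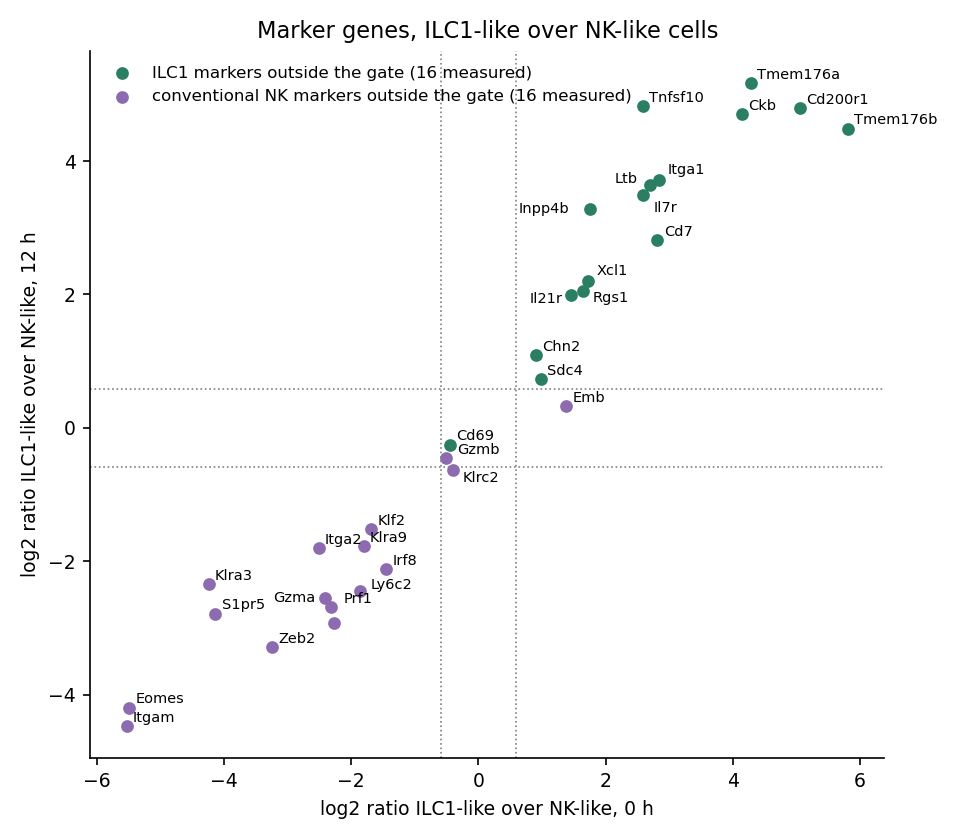
Log2 ratio of ILC1-like over NK-like CPM for marker genes outside the gate, at 12 h (vertical axis) against 0 h (horizontal axis), 1 point a gene (1 point has no name), with dotted lines at 1.5-fold. Of 16 ILC1 markers 15 lie past the line at both times in the upper right, and 13 of 16 conventional NK markers lie past it in the lower left.

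Among T cell receptor constant genes, Trbc2 and Tcrg-C4 were higher in members than in NK-like cells, while Trac was far lower than in T cells. Trac, the constant gene of the alpha chain, had 4 UMIs in members at 12 h and 1 at 0 h. It stood at 118 and 134 CPM in cells gated as T cells, and at 3.86 and 10.6 CPM in B cells. Trbc2, the constant gene of the beta chain, stood at 450 CPM in ILC1-like and 150 CPM in NK-like cells at 12 h, and at 461 and 163 CPM at 0 h. T cells had 388 and 372 CPM, and B cells 15.6 and 26.3 CPM. Tcrg-C4, a constant gene of the gamma chain, had 108 CPM in ILC1-like and 3.16 CPM in NK-like cells at 12 h, and 117 and 7.75 CPM at 0 h. Members thus lay at or above T cells in Trbc2 and far below them in Trac. The 10 T cell markers summed to 625 CPM at 12 h and 729 CPM at 0 h in the members, with 1 and 0 of them at 0. Trbc2 gave 257 of the 357 UMIs behind this sum at 12 h and 110 of 174 at 0 h. The 6 gamma-delta T cell genes summed to 331 CPM at 12 h and 339 CPM at 0 h in members. T cells had 199 and 193 CPM of them, and NK-like cells 137 and 119 CPM. Among these 6, Trdv4 alone had 189 and 188 CPM in members. Trdc, the constant gene of the delta chain, had 6 UMIs in members and 18 in NK-like cells at 12 h, and 2 and 7 at 0 h. In members Tcrg-C1, Tcrg-C2 and Trgv2 had 7, 2 and 4 UMIs at 12 h and 4, 0 and 2 at 0 h. With cells that held any Trac, Trbc1 or Trbc2 UMI left out, 121 members at 12 h and 60 at 0 h remained.

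Markers of the other lineages given here summed lower than the T cell markers. The 5 iNKT genes summed to 47.2 CPM at 12 h and 79.6 CPM at 0 h. Of these, the segments Trav11 and Traj18 had 0 UMIs, while Icos had 21 and 13, against 6 and 2 in NK-like cells. The macrophage genes C1qa and Adgre1 and the Kupffer cell gene Clec4f had 0 UMIs at both times. The 7 dendritic cell genes summed to 108 CPM at 12 h and 234 CPM at 0 h, against 121 and 103 CPM in NK-like cells. The 14 monocyte and macrophage genes summed to 147 CPM at 12 h and 205 CPM at 0 h, with 9 and 11 of them at 0, and the 10 B cell genes to 163 and 239 CPM. Of 12 hepatocyte genes 11 at 12 h and 12 at 0 h had 0 UMIs. Il17a and Il22 had 0 UMIs in the members of both reporter-negative libraries. For Il22 the 0 allows up to 5.25 CPM at 12 h and 12.6 CPM at 0 h. The part of T cell, B cell and myeloid RNA in the results was not tested.

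ILC1-like cells took a larger share of reporter-negative leukocytes at 12 h than at 0 h, and so did NK-like cells. Members made up 2.61% (2.31 to 2.94) of kept cells at 12 h and 1.49% (1.24 to 1.78) at 0 h, a ratio of 1.75 (1.41 to 2.18). NK-like cells made up 4.30% and 2.55%, a ratio of 1.68 (1.42 to 1.99). Within the 2 classes together, ILC1-like cells were 37.8% (34.2 to 41.5) at 12 h and 36.9% (31.7 to 42.3) at 0 h. The balance between the classes therefore differed by less than counting error. Undecided cells made up 20.2% of the cells that passed the first steps at 12 h and 30.7% at 0 h. With each cell thinned to 1000 UMIs the ratio of ILC1-like shares was 1.57 (1.20 to 2.05), and the share within the 2 classes was 36.5% and 34.0%. Cells gated as T cells made up 44.0% at 12 h and 33.6% at 0 h, and B cells 20.5% and 24.5%, so a share moves with the rest of the library. Fewer cells of other types and more members cannot be told apart from shares.

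**Figure D2:**
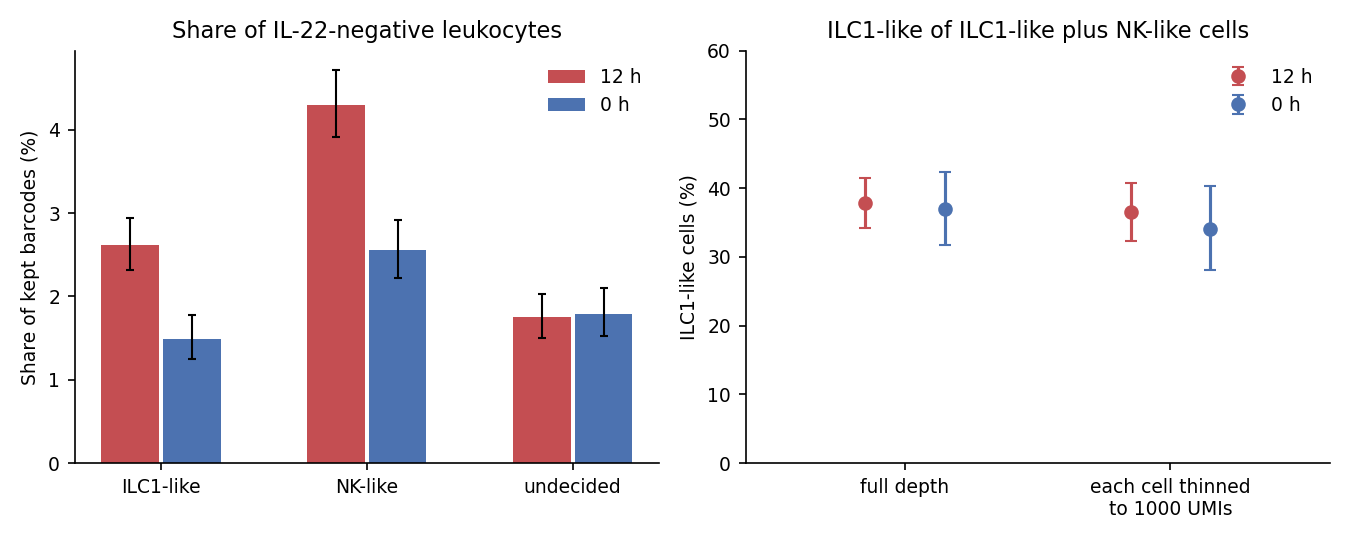
Left, share of kept reporter-negative cells (%) that were ILC1-like, NK-like or undecided at 12 h and 0 h, 1 library each. Right, ILC1-like cells as a percentage of ILC1-like plus NK-like cells at full depth and thinned to 1000 UMIs. Bars and points carry exact binomial 95% intervals. The ILC1-like share was 2.61% and 1.49%, while the share within both classes was 37.8% and 36.9%.

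In members, 3424 genes were measured, of which 223 (6.51%) were at least 1.5-fold higher at 12 h than at 0 h and 457 (13.3%) were lower. The median log2 ratio was -0.06. With cells that held Trac, Trbc1 or Trbc2 left out, 229 genes were higher and 227 lower, so the excess of lower genes was gone. With at least 100 UMIs over both sums 26 were higher and 30 lower, and with cells thinned to 1000 UMIs 113 and 136, a smaller excess. Under the other alternatives run more genes were also lower than higher, such as 206 higher and 282 lower with Ncr1 required. In NK-like cells 6.92% of 4478 genes were higher and 12.3% lower, and the median was -0.07. Of 976 genes with enough UMIs to be named, 45 were higher and 17 lower by that fold in the members, and the 12 highest and 12 lowest are described here. The counting intervals of these 24 genes lie on 1 side of 1, which ranking by size favours. Ribosomal protein genes took 24.4% of members' UMIs at 12 h and 21.3% at 0 h, and 23.2% and 19.8% in NK-like cells.

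Tigit had the highest ratio of 12 h over 0 h, and Bcl2a1b was among the 12 highest. Tigit, an inhibitory receptor, had 64 UMIs in 48 cells (112 CPM) at 12 h and 9 UMIs in 9 cells (37.7 CPM) at 0 h, a ratio of 2.97 (1.47 to 6.79). Tigit was 2.25-fold higher in NK-like and 1.81-fold in B cells, and lower in T cells, at 0.704 (0.636 to 0.780). Bcl2a1b, a survival gene of the BCL-2 family, had 179 UMIs in 88 cells (313 CPM) at 12 h and 33 UMIs in 23 cells (138 CPM) at 0 h, a ratio of 2.27 (1.56 to 3.39), against 0.675 (0.437 to 1.06) in NK-like cells. The 2 classes' intervals for Bcl2a1b do not overlap, but the difference was not tested, and its reads can be split with the near-identical Bcl2a1d, which had a ratio of 1.12 (0.754 to 1.71). Tigit was thus higher in both innate classes, and Bcl2a1b in ILC1-like cells.

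The other 10 higher genes include 4 of basic cell functions whose NK-like ratios were between 0.870 and 1.20. They are Cetn3, a centrosome protein (2.79, 1.37 to 6.38), and Mcts1, a translation factor (2.28, 1.19 to 4.81). The others are Rab19, a small GTPase (2.19, 1.17 to 4.47), and Atp6v1e1, a subunit of the vacuolar proton pump (2.15, 1.20 to 4.13). These 4 ratios rest on 9, 11, 12 and 14 UMIs at 0 h. The haem oxygenase Hmox2 was at 2.06 (1.22 to 3.71) and Gatd3a at 2.02 (1.07 to 4.13), on 17 and 12 UMIs at 0 h. The thioredoxin-like gene Txnl1 had 159 CPM at 12 h and 79.6 CPM at 0 h. Serpinb6b, a protease inhibitor of cytotoxic lymphocytes, was 1.95-fold higher (1.28 to 3.07) and also 1.75-fold in NK-like cells. Rtp4, an interferon-induced gene, was at 1.91 (1.06 to 3.69) and at 5.22 (2.12 to 16.6, on 5 UMIs at 0 h) in NK-like cells. Nrgn, a calmodulin-binding protein, was at 1.90 and 1.70. Past 1.5-fold in NK-like cells were 4 of the 12 genes.

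Il2rb, the shared receptor chain for interleukins 2 and 15 on which these cells depend, was among the lowest ratios. It had 209 UMIs in 140 cells (366 CPM) at 12 h and 156 UMIs in 80 cells (653 CPM) at 0 h, a ratio of 0.560 (0.453 to 0.693), with 0.881 (0.720 to 1.08) in NK-like and 0.508 in B cells. The adhesion receptor Cd2 had 154 CPM at 12 h and 281 CPM at 0 h, a ratio of 0.549 (0.395 to 0.766), against 1.03 in NK-like cells. Ikzf3, the zinc finger factor Aiolos, was at 0.568 (0.407 to 0.797), with 1.02 in NK-like cells, and Klrc1, the inhibitory receptor NKG2A, at 0.578 (0.424 to 0.792) and 0.741. Cd2, Il2rb and Ikzf3 were thus lower in the members by more than 1.5-fold and not in NK-like cells. They were also lower in B cells, with Cd2 at 0.649 (0.600 to 0.701) and Ikzf3 at 0.682 (0.630 to 0.739). In T cells Cd2 was at 0.917 and Ikzf3 at 0.926.

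Phf20l1, a chromatin reader, was the lowest at 0.510, and the cytoskeletal linker Macf1 was at 0.574. Ly6c2, a surface antigen gene, was at 0.601, and 1 cell held 27 of its 92 UMIs at 12 h. It had a ratio of 1.22 with cells that held Trac, Trbc1 or Trbc2 left out. The complex I gene Ndufv2 (0.602), the chromatin regulator Ankrd11 (0.605), the splicing factor Sfpq (0.631), the chaperone Hspa4 (0.636) and the RNA-binding protein Hnrnpd (0.638) completed the 12. In B cells 11 of the 12 had a ratio below 1 and 5 passed 1.5-fold, while 0 passed it in T cells and 0 in NK-like cells.

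**Figure D3:**
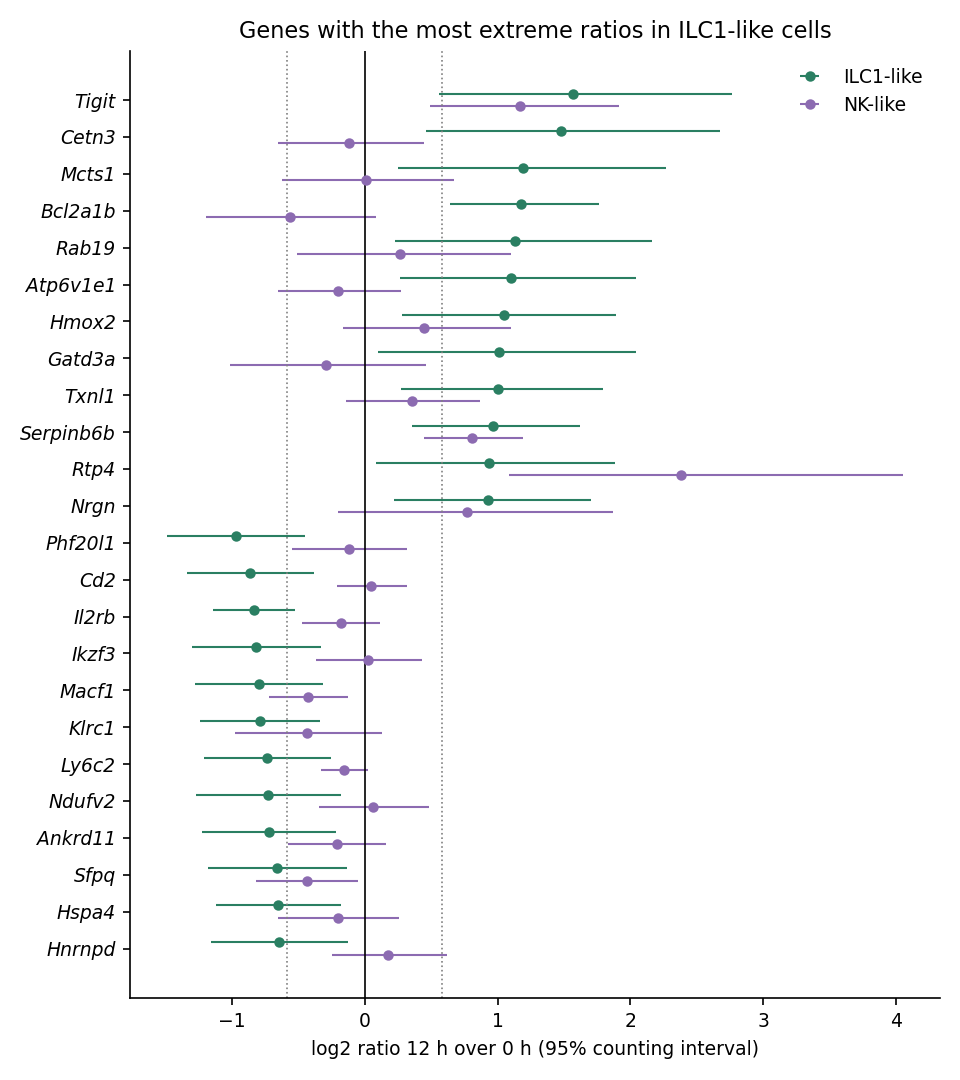
Log2 ratio of CPM at 12 h over 0 h for the 12 highest and 12 lowest genes of ILC1-like cells, with NK-like cells beside them. Lines are 95% counting intervals and dotted lines mark 1.5-fold. Bcl2a1b is at 2.27 in ILC1-like and 0.675 in NK-like cells, and Il2rb at 0.560 and 0.881.

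Effector genes were mostly within 1.5-fold between the times, and granzyme B was the main exception. Gzmb had 626 UMIs (1095 CPM) at 12 h and 162 UMIs (678 CPM) at 0 h, a ratio of 1.61 (1.36 to 1.93). The Gzmb ratio was 1.55 (1.38 to 1.75) in NK-like, 1.62 (1.54 to 1.72) in T and 1.31 (1.12 to 1.53) in B cells. Xcl1, the chemokine that attracts XCR1-positive dendritic cells, had 1455 UMIs (2545 CPM) at 12 h and 431 UMIs (1805 CPM) at 0 h, a ratio of 1.41 (1.27 to 1.57), against 1.01 (0.857 to 1.19) in NK-like, 1.49 in B and 1.55 in T cells. A Xcl1 UMI was found in 86.7% of members at 12 h and 71.0% at 0 h, and in 31.8% and 31.1% of NK-like cells. With cells thinned to 1000 UMIs, leaving out 22 and 30 shallower members, the shares were 78.9% (73.2 to 83.9) and 63.8% (53.3 to 73.5) in members. In B cells, which should lack Xcl1, they were 3.07% and 4.27% thinned and 5.01% and 6.88% at full depth (medians of 1674 and 1696 UMIs).

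Ifng had 203 UMIs in 121 members (355 CPM) at 12 h and 59 UMIs in 43 members (247 CPM) at 0 h, a ratio of 1.44 (1.07 to 1.96), with 0.998 (0.819 to 1.22) in NK-like cells. Thinned, 63 of 242 members at 12 h and 20 of 94 at 0 h (21.3%) had an Ifng UMI, with overlapping intervals of 20.6% to 32.0% and 13.5% to 30.9%, against 1.43% and 1.80% of B cells. Tnfsf10 was at 0.768 (0.507 to 1.18), Prf1 at 0.672 (0.389 to 1.18), Itga1 at 0.849 (0.544 to 1.35), Zfp683 at 0.739 (0.359 to 1.59) and Tbx21 at 0.940 (0.509 to 1.81), intervals that all include 1. Eomes had 5 UMIs at 12 h and 1 at 0 h. Of 13 measured cytotoxic effector genes 2 were higher and 0 lower (median log2 ratio -0.18). Of 5 measured cytokine and TNF family genes 0 passed the fold in either direction. Over all genes measured in members 6.51% were higher and 13.3% lower.

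Ccl3, Ccl4 and Ccl5 had ratios above 1 in the members and below 1 in NK-like cells, unlike Cxcl10, which was higher in both. Ccl3 was at 1.24 (1.07 to 1.45) in members and 0.818 (0.758 to 0.885) in NK-like cells, Ccl4 at 1.25 (1.16 to 1.35) and 0.802 (0.763 to 0.843), and Ccl5 at 1.27 (1.22 to 1.32) and 0.953 (0.930 to 0.976). These 3 genes encode CC chemokines, and the difference between the classes was not tested. Cxcl10, an interferon-induced ligand of CXCR3, had 48 UMIs in 17 members at 12 h and 9 UMIs in 2 members at 0 h, a ratio of 2.23 (1.08 to 5.17), with 3.81 in NK-like and 4.25 in B cells. Ccl1 had 136 UMIs in 9 members at 12 h and 0 at 0 h, a ratio of 18.9 with the 0 set to 3 UMIs for the sum. One cell held 71 of these UMIs, and without it this ratio is 9.09. Neither value is a lower limit. Of 6 measured chemokines 2 were higher and 0 lower (median log2 ratio 0.42, and -0.07 in NK-like cells). The shares over all genes measured in members were 6.51% higher and 13.3% lower.

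Cytokine receptor genes had a median ratio of 12 h over 0 h below 1 in both classes. Of 14 measured in members 1 was higher and 5 lower (median log2 ratio -0.50), and of 14 in NK-like cells 0 were higher and 7 lower (median -0.57). Over all measured genes, 6.51% were higher and 13.3% lower in members, and 6.92% and 12.3% in NK-like cells. The 5 lower receptors of members became 3 with cells holding Trac, Trbc1 or Trbc2 left out, 2 with Ncr1 required or with an ILC1-side sum of at least 2 and an NK-side sum of 0, and 1 with cells thinned, with at least 100 UMIs or at a fold of 2. Beside Il2rb, the lower genes were Il12rb2 (0.501), for interleukin 12, Il27ra (0.653), Ifnar1 (0.395, 0.191 to 0.811), for type I interferon, and Tgfbr2 (0.528, 0.277 to 1.02). Tgfbr1, the partner of Tgfbr2 in the TGF-beta receptor, ran the other way with 29 UMIs at 12 h and 3 at 0 h, a ratio of 4.04 (1.25 to 20.7). Il2rg, the common gamma chain, was at 1.38 (1.08 to 1.78) and at 0.815 in NK-like cells.

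Among 16 measured lineage transcription factors 2 were higher and 2 lower. For this and the next lists, the shares over all measured genes were 6.51% higher and 13.3% lower in members. In NK-like cells they were 6.92% and 12.3%. The number of lower factors lay near the share over all genes. Ahr, the aryl hydrocarbon receptor that sustains innate lymphocytes in barrier tissues, was at 2.09 (1.05 to 4.62) on 50 UMIs at 12 h and 10 at 0 h, and Batf, an AP-1 family factor, at 1.62 (0.941 to 2.95). Tcf7, the gene of TCF-1, was at 0.440 (0.223 to 0.871), and Ikzf3 was the other lower one. Of 9 measured inhibitory receptors Tigit was higher, and Klrc1 and Lag3 lower, Lag3 with 24 UMIs at 12 h and 26 at 0 h (0.386, 0.212 to 0.699). Of 10 measured residency genes 1 was higher and 2 lower, with Rgs1 at 1.01 and Cd69 at 1.17. Of 19 immediate early genes Ier2 was higher at 1.52 (1.25 to 1.85) and 4 were lower, among them Nr4a2 (0.649) and Egr1 (0.400), while 9 of 20 were lower in NK-like cells.

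Several interferon response genes had ratios of 12 h over 0 h nearer to 1 in members than in NK-like cells, and were higher in members than in NK-like cells at 0 h. Of 21 measured in members 4 were higher at 12 h and 1 lower (median log2 ratio 0.14), and of 26 in NK-like cells 11 were higher and 0 lower (median 0.54). Over all measured genes, 6.51% were higher and 13.3% lower in members, and 6.92% and 12.3% in NK-like cells. The 4 higher genes of members became 2 with cells holding Trac, Trbc1 or Trbc2 left out, 1 with those stricter sums or at least 100 UMIs, and 0 at a fold of 2, where 6 were higher in NK-like cells. In ILC1-like over NK-like cells, 6 of 29 measured were higher and 5 lower at 12 h, and 8 of 16 higher and 2 lower at 0 h. All measured genes gave 13.6% higher and 10.7% lower at 12 h, and 15.3% and 11.5% at 0 h. Isg15, a ubiquitin-like modifier that type I interferon induces, had 243 CPM in ILC1-like and 323 CPM in NK-like cells at 12 h, and 147 and 56.9 CPM at 0 h. Its ratio of 12 h over 0 h was 1.66 (1.14 to 2.48) in members, 5.69 (3.69 to 9.21) in NK-like, 2.95 in B and 2.58 in T cells. Bst2, which tethers virions to the cell surface, was at 1.14 (0.847 to 1.55) in members and 2.92 (2.10 to 4.18) in NK-like cells. At 0 h the ratio of ILC1-like over NK-like was 2.58 for Isg15, 4.54 for Rtp4, 2.51 for Bst2 and 2.75 for Xaf1, and at 12 h it was 0.752, 1.66, 0.978 and 0.719. The nucleic acid sensor Zbp1 (1.81) and Oas1a (1.72), whose product makes oligoadenylates, were the other higher genes in members, and Ly6a was lower (0.476), with 1 cell holding 25 of its 41 UMIs at 12 h. The difference between the classes was not tested.

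The promoters of 4 of these genes are shown as a description, and no link between them and the ratios was tested. Each is the 250 bases before the transcription start, from RefSeq (GRCm38.p6), given 5′ to 3′ on the strand of the gene. Capitals mark matches to GAAANNGAAA, the core of the interferon-stimulated response element, searched on both strands with overlapping matches joined.
Isg15: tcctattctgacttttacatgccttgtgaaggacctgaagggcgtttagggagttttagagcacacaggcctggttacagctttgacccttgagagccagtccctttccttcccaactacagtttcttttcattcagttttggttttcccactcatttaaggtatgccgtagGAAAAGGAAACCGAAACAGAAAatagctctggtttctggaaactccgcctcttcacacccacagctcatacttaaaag
Oas1a: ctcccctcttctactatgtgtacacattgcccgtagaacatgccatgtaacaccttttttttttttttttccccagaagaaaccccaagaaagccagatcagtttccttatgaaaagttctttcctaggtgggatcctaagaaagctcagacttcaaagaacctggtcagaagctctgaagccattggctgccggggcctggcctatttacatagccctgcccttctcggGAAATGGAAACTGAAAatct
Bst2: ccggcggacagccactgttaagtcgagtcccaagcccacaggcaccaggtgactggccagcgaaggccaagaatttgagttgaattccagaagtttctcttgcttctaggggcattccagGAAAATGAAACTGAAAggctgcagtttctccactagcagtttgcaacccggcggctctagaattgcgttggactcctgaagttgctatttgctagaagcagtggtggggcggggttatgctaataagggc
Xaf1: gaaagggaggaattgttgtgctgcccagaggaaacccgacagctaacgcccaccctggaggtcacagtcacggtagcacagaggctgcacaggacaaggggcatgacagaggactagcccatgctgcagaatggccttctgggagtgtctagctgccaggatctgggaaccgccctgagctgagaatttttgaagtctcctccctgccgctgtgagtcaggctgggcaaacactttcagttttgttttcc
Isg15 lies on the minus strand, with this window at chr4:156200819-156201068, and holds 3 overlapping matches. The first begins 78 bases before the start. Oas1a (chr5:120907526-120907775) holds 2 overlapping matches from 20 bases before the start, and Bst2 (chr8:71537473-71537722) 2 from 130 bases. Both are on the minus strand. Xaf1 (chr11:72301379-72301628, plus strand) has 0 matches in the window. Of 27025 promoters of the same length 936 (3.46%) hold the motif, as do 111 of 2720 (4.08%) genes measured in members and 7 of 14 measured interferon response genes with an entry. The 7 are Bst2, Ifi203, Ifi213, Isg15, Oas1a, Slfn8 and Trim30a, whose ratios in members lay between 1.03 and 1.72. A match is a description of letters and not of binding.

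**Figure D4:**
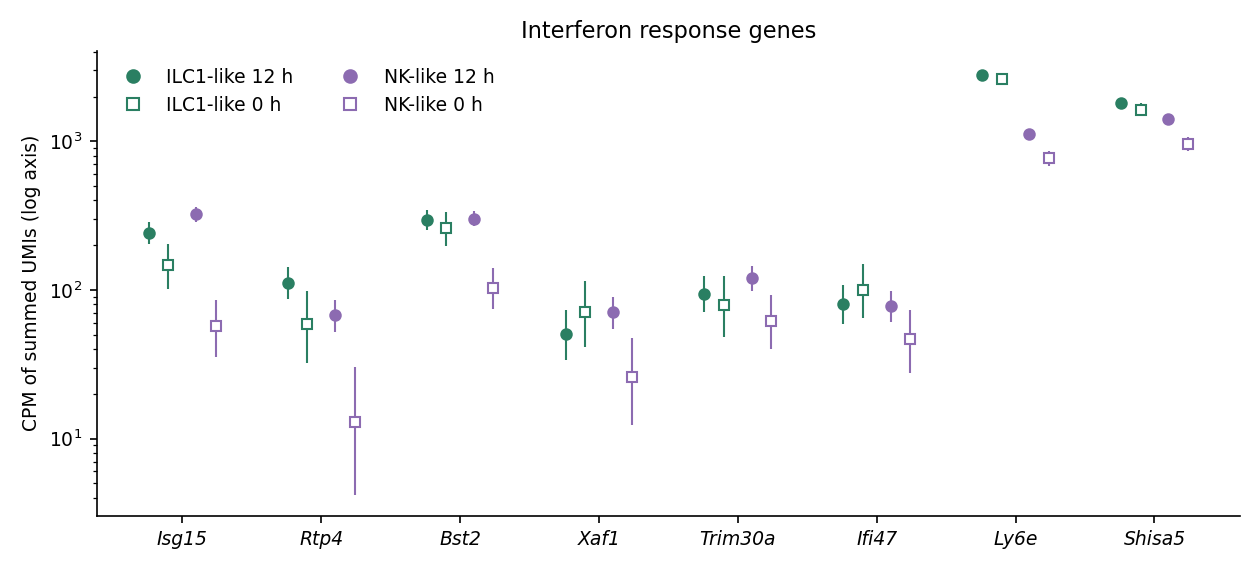
CPM on a log axis of 8 interferon response genes in ILC1-like and NK-like cells at 12 h (filled circles) and 0 h (open squares), with exact Poisson 95% intervals, 1 library a point. Isg15 is at 243 and 147 CPM in ILC1-like cells and at 323 and 56.9 CPM in NK-like cells.

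The other lists differed in how many of their genes passed the fold in the members. Over all measured genes 6.51% were higher and 13.3% lower in members, and 6.92% and 12.3% in NK-like cells. Of 34 measured oxidative phosphorylation genes 1 was higher (Uqcrq, 1.58) and 1 lower (Ndufs6, 0.574). Of 13 glycolysis and hypoxia genes 3 were higher, among them Hif1a, the hypoxia-inducible factor, at 1.83 (0.991 to 3.65), and 2 lower, among them Pkm (0.633). Of 6 measured proliferation genes 0 passed the fold in members. In NK-like cells, whose summed UMIs were larger, 14 were measured and 8 of them higher, so the counts rest on different sets of genes. Of 11 heat shock genes 0 passed the fold in members. Smad7, the inhibitory SMAD that TGF-beta induces, had 27 UMIs at 12 h and 4 at 0 h, a ratio of 2.82 (0.983 to 11.1), and with Tgfbr1 made 2 of 6 measured TGF-beta genes, where Tgfbr2 was lower. Ifitm1, Ifitm2 and Ifitm3 had 39, 40 and 80 UMIs at 12 h and 2, 3 and 5 at 0 h, and 3 cells held 97.4%, 72.5% and 81.3% of the 12 h UMIs.

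Members with a Gzmc UMI had higher levels of several effector genes at 12 h than those without. Gzmc is a gene of the gate, so cells without it had to enter through Cd160, Cxcr6 or Klra5, and the split is a description that tests nothing. There were 49 with and 215 without at 12 h, and 19 and 105 at 0 h, at like median depths of 2136 and 2020 UMIs at 12 h. Gzmb, which lies in the same granzyme cluster at chr14:56258838-56262260, had 2043 CPM in Gzmc-positive and 869 CPM in Gzmc-negative members at 12 h, a ratio of 2.35 (1.99 to 2.78), and 705 and 672 CPM at 0 h, a ratio of 1.05 (0.694 to 1.55). Xcl1 had ratios of 1.96 (1.75 to 2.19) and 1.01 (0.786 to 1.28), and Ccl3 of 1.94 (1.64 to 2.28) and 0.592 (0.387 to 0.877). Gzma was higher in Gzmc-positive members at both times, with 1.83 (1.66 to 2.02) and 1.55 (1.33 to 1.81). Ifng had a ratio of 1.48 (1.06 to 2.04) at 12 h and of 0.144 (0.0170 to 0.545) at 0 h, the last on 2 UMIs. Ltb was at 1.66 and 1.14, and Klf2, a factor of lymphocyte egress, at 0.653 and 0.982. Prf1 was not higher at 12 h, with a ratio of 0.508 (0.131 to 1.43) on 4 and 33 UMIs. At 0 h its ratio was 1.45 (0.468 to 3.85). Reads of the similar genes Gzmb and Gzmc could be split between them, and the ratios were not tested against each other between the times.

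Splits by Cd160 and Cxcr6 are likewise descriptions, since both are genes of the gate and chose the cells. Cd160-negative members were also shallower, with a median of 2115 UMIs in Cd160-positive and 1803 in Cd160-negative members at 12 h, and 1874 and 1016 at 0 h. Gzmb in Cd160-positive over Cd160-negative members was at 0.491 (0.411 to 0.588) at 12 h and 0.947 (0.615 to 1.51) at 0 h, and Gzma at 0.469 and 0.540. A cell without Cd160 had to enter through Gzmc, Cxcr6 or Klra5, so these splits are not independent of each other. Tmem176b was higher in Cd160-positive members at both times, with ratios of 1.72 (1.13 to 2.75) and 2.07 (1.01 to 4.94). Klf2 was at 0.546 (0.438 to 0.675) in Cxcr6-positive over Cxcr6-negative members at 12 h and at 1.67 (1.31 to 2.13) at 0 h.

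The 5 members of the reporter-positive libraries held 0 Il22 UMIs. The 2 of 12 h had 6 Xcl1, 7 Cd160, 25 Cd7 and 14 Gzma UMIs. The 3 of 0 h had 0 Xcl1, 0 Gzma, 7 Cd160 and 8 Cd7 UMIs, with 19 UMIs of Il7r, 36 of Tmem176a and 52 of Tmem176b. With so few cells these values stand as a description of single cells.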

How the data were processed

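Liver leukocytes were sorted by CD45 and the IL-22-BFP reporter and sequenced with 10x Genomics 3' chemistry, per the labels' protocols. The deposited matrices hold UMI counts as whole numbers, 1 matrix per library, written by Cell Ranger 4.0.0 per the file headers; the submitters' processing notes name Cell Ranger 3.0.1 and mm10. Doublets were kept in the main analysis, and no doublet removal by the authors is given in the sources used here.

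The members, the 23 gene program lists and the 16 marker lists were chosen with earlier results of these data known. T cells were gated as at least 2 UMIs of Cd3d, Cd3e and Cd3g together with no Cd79a, and B cells as Cd79a without Cd3. For each library, the UMIs of a class were added up and scaled to CPM. Ratios have exact conditional binomial intervals, shares exact Clopper-Pearson intervals and levels exact Poisson intervals, all at 95% and for counting error only. Each group has 1 library, so there is no test, p-value or standard error. A gene was measured with at least 30 UMIs over both sums and passed at 1.5-fold. A sum of 0 was set to 3 UMIs for the value of a ratio and for the level that a 0 allows. Named genes for 12 h over 0 h were the 12 highest and 12 lowest ratios among genes whose higher sum reached 50 UMIs and 100 CPM, with a UMI in at least 10% of the cells behind it; for ILC1-like over NK-like cells, the 10 highest and 10 lowest that met this at both times, ranked by the time with the weaker difference. Genes of the gate, of ribosomal proteins, of mitochondria, of antigen receptors, of hepatocytes and of the sex chromosomes' dosage (Xist and Y-linked genes) were left out, and genes of the lists and 12 genes reported in any case were named as well. One gene that met the rule against NK-like cells is not reported here. Alternatives changed the gate, the filters, the doublet treatment, the depth, the scaling, the weighting of cells and the thresholds. Leaving out barcodes found in more than 1 library was chosen after seeing the data. Scrublet's automatic threshold marked 1 barcode at 12 h, so the 0 h threshold of 0.243 was used there, which marked 607, against 373 at 0 h. The counting script was tested on simulated data. Python 3.11.15, numpy 2.4.6, scipy 1.17.1, pandas 2.3.3, scanpy 1.11.5 and matplotlib 3.10.9 were used, with GENCODE vM21 (GRCm38) for gene coordinates, which matched 32235 of 32285 features.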

Additional observations from a re-analysis of the deposited data

Results flagged for a closer look

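Among 286 genes of the lists and named genes, 3 had ratios of 12 h over 0 h past 1.5-fold in opposite directions in ILC1-like and NK-like cells. Nfkb1, a subunit of NF-kappaB, was at 0.371 (0.177 to 0.772) in ILC1-like and 1.77 (0.842 to 4.15) in NK-like cells. Capg, an actin-capping protein gene, was at 0.588 (0.350 to 1.00) and 1.72 (1.07 to 2.88). Igtp, an interferon-inducible GTPase gene, was at 0.657 (0.321 to 1.39) and 1.59 (0.779 to 3.57). The difference between the classes was not tested, and each of these ratios rests on fewer than 100 UMIs a sum. Of 3310 genes measured in both classes 36 had such opposite ratios, about the same share as the 3 of 286. The lists and named genes thus held no more of them than all genes did.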

How the results depend on the processing

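No paired analysis was possible because each group has 1 library, and for the same reason no replicate could be left out. Of the main shares, counts and list results 122 kept their value under an alternative, within 1.5 times for counts, and 56 moved. With cells holding Trac, Trbc1 or Trbc2 left out, there were 121 members at 12 h and 60 at 0 h, or 1.20% and 0.723% of kept cells and 22.7% and 17.8% of the innate cells (ILC1-like, NK-like and undecided). Genes lower at 12 h then numbered 227, genes higher than in NK-like cells at 12 h 427, lower cytokine receptors 3 and higher interferon genes 2, and Ly6c2 reversed to 1.22. With Ncr1 required, there were 167 and 77 members (1.65% and 0.928%, and 29.7% of innate cells at 0 h), 282 genes lower, 250 higher than in NK-like cells at 0 h and 2 lower receptors. With an ILC1-side sum of at least 2 and an NK-side sum of 0, there were 156 and 70 members (1.54% and 0.843%, and 17.8% and 14.4% of innate cells), 256 genes lower, 260 higher than in NK-like cells at 0 h, 2 lower receptors and 1 higher interferon gene. Thinned to 1000 UMIs, the 12 h shares were 2.04% and 24.6% of innate cells, 113 genes were higher and 136 lower at 12 h, 261 and 313 over NK-like cells at 12 h, 143 and 165 at 0 h, and 1 receptor was lower. With at least 100 UMIs, these counts were 26 and 30, 137 and 158, 60 and 77, and 1, with 1 interferon gene higher in members and 4 in NK-like cells. At a fold of 2 they were 56 and 102, 226 and 202, 151 and 132, and 1, with 0 interferon genes higher in members and 6 in NK-like cells. With each cell weighted equally 8 receptors were lower. The lower counts under thinning and the stricter limits follow from fewer UMIs, genes or a larger fold; otherwise the cause was not tested. The ratio of ILC1-like shares, 1.75, lay between 1.57 and 1.83 under all alternatives run. Of the values of named genes between the times 324 kept their value, 11 moved and 1 reversed, and of those against NK-like cells 485 kept it and 35 moved. Depth limits what can be said of genes below 30 UMIs, where 1 UMI at 0 h is worth 4.19 CPM.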
